A study of Mus musculus with 32 samples.

Results

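Interferon-stimulated genes are the genes that cells switch on when an interferon binds its receptor, and 44 of them, chosen as a list of symbols by function, were followed here from mouse monocytes into the macrophages that these monocytes form in the colon and ileum. All 44 symbols were found in both exon count tables, which share 24148 gene symbols. They comprised the IFIT proteins (Ifit1, Ifit2, Ifit3), the ISG15 system and a nuclease (Isg15, Usp18, Isg20), the Mx GTPases (Mx1, Mx2), the oligoadenylate synthetases (Oas1a, Oas1g, Oas2, Oas3, Oasl1, Oasl2), the nucleotide-modifying enzymes Rsad2 and Cmpk2, nucleic acid sensors (Ddx58, Ifih1, Dhx58, Zbp1, Eif2ak2), interferon-inducible GTPases (Ifi47, Igtp, Irgm1, Irgm2, Iigp1, Gbp2, Gbp3, Gbp7), membrane restriction factors (Ifitm1, Ifitm2, Ifitm3, Bst2), Stat2 with the ADP-ribosylation proteins Parp14, Parp9 and Dtx3l, and a further 7 genes (Ifi35, Ifi44, Ifi27, Xaf1, Trim30a, Samd9l, Rtp4).

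The monocyte graft was sorted as CD117- CD11b+ CD115+ Ly6C+ GFPint cells from the bone marrow of Cx3cr1 GFP/+ C57BL/6 mice that carried the CD45.1 allotype. It was injected into irradiated young adult wild-type recipients whose bone marrow had been replaced by that of CD11c-DTR mice ([CD11c-DTR > WT] chimeras), in which the Itgax (CD11c) promoter drives the diphtheria toxin receptor and GFP. Toxin was given before the transfer and every other day after it, so that recipient macrophages and other CD11c-expressing cells were ablated, and the recipients' own gut epithelium and stroma were left in place. Graft-derived macrophages were sorted from the colon on day 4 (3 libraries), day 8 (4 libraries, of which 3 entered the tests) and day 12 (4 libraries), and from the ileum on days 4, 8 and 12 (4 libraries each), beside 3 libraries of the graft. A second set of 6 libraries came from the colon of [CX3CR1-DTR > WT] chimeras treated in the same way, in which the receptor is expressed by CX3CR1-positive cells. The labels give that set no day, and the study places it at day 14. The study also lists fewer repeats for this set than there are labelled libraries, with nothing to tell them apart, and all were used. The transfers into CD11c-DTR recipients were done in 3 experiments, read from dates in the sample titles. The labels record the graft as blood and with the genotype of the Itgax-DTR strain, while their protocol and the study describe bone marrow monocytes of Cx3cr1 GFP/+ donors, and the latter is used here. Whether a gut library came from 1 recipient or several is not given in the sources used here, so p-values measure only the spread between these libraries, which may in part be technical.

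Type I interferons bind Ifnar1 and Ifnar2 and, through the kinases Jak1 and Tyk2, act on a complex with Stat2 and Irf9 that binds the interferon-stimulated response element in the promoters of its targets. Interferon-gamma binds Ifngr1 and Ifngr2 and acts through Jak1 and Jak2 on genes with a gamma-activated site. The proteins made from these genes sense viral RNA and DNA, degrade RNA, block viral entry and budding, conjugate ISG15 to other proteins, or attack the vacuoles of intracellular microbes. Many of them are also kept at a low tonic level in leukocytes and in gut epithelium without infection.

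RefSeq promoters of build GRCm38.p6, each 300 bases long from 250 bases before to 50 bases after a transcription start, were given for 33 of the 44 members. The response element, searched as GAAANNGAAA on both strands, was found in 21 of these 33 genes (63.6%) and in 1079 of 27025 genes with a promoter (3.99%). The gamma-activated site, searched as TTCNNNGAA on both strands, was found in 10 of the 33 (30.3%) and in 2582 of the 27025 genes (9.55%); the searches were separate, so that matches of either may overlap. A match is a run of letters and not a measured binding site. The windows below show 1 match in each of 12 members to which the results return, from both the antiviral and the GTPase groups, printed 5′ to 3′ along the strand of the gene with the match in capitals and its distance from the transcription start. Where the capitals read TTTC, the element lies on the opposite strand.
Ifit1 (chr19:34640794-34640823, plus strand, -85 to -76): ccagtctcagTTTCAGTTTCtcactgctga
Ifit3 (chr19:34583363-34583392, plus strand, -156 to -147): cagtggtaagTTTCACTTTCctcttctggt
Isg15 (chr4:156200871-156200900, minus strand, -72 to -63): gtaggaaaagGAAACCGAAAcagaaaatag
Oas1a (chr5:120907520-120907549, minus strand, -14 to -5): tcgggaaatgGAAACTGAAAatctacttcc
Rsad2 (chr12:26456553-26456582, minus strand, -120 to -111): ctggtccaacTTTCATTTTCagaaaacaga
Igtp (chr11:58199512-58199541, plus strand, -34 to -25): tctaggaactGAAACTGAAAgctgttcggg
Irgm2 (chr11:58214903-58214932, plus strand, -64 to -55): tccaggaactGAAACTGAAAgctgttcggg
Gbp2 (chr3:142620594-142620623, plus strand, -59 to -50): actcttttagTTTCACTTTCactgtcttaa
Gbp7 (chr3:142530273-142530302, plus strand, -53 to -44): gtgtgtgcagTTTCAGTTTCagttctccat
Bst2 (chr8:71537577-71537606, minus strand, -124 to -115): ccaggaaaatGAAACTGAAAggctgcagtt
Stat2 (chr10:128270266-128270295, plus strand, -222 to -213): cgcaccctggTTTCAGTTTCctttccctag
Ifitm3 (chr7:141010706-141010735, minus strand, 20 to 29): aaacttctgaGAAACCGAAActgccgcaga
The window of Oas1a occurs letter for letter in the promoter of Oas1g, its neighbour on the chromosome. Counts of these near-identical paralogs are uncertain, because only uniquely mapped reads were kept and reads that fit both would be lost. The response element was not found in this window for Ifit2, Isg20, Oasl1, Oasl2, Cmpk2, Ifi47, Ifitm1, Dtx3l, Ifi35, Ifi44, Xaf1 and Samd9l, and Usp18, Mx1, Mx2, Oas2, Dhx58, Zbp1, Iigp1, Parp14, Parp9, Ifi27 and Rtp4 had no promoter entry.

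Levels are given as normalized reads, which are counts on the exons of a gene per 10000000 mapped reads of the library. The libraries held 591817 (ileum day 4 replicate 3) to 5228664 (colon day 8 replicate 4) reads on genes, so that 1 read was worth 1.17 to 9.22 normalized reads, and a count of 0 allows up to 3 reads. Before any result, the cell type markers set limits to what a level stands for. A list of 16 pan-leukocyte genes summed to 176860 to 193646 reads per 10000000 reads on genes in the graft, to 3945 to 15392 in the tested colon libraries, to 11792 to 73866 in the ileum libraries and to 3304 to 9152 in the CX3CR1-DTR libraries. A list of 12 epithelial genes summed to at most 123 in the graft and to 172911 to 259145 in the tested colon libraries. It summed to 31712 to 224782 in the ileum and to 193593 to 251714 in the CX3CR1-DTR libraries. All gut libraries therefore went partly against their label as sorted CD45+ macrophages, the colonic ones most. Macrophage markers were present in every group, but not each of them. Mertk was at 0 in the graft and at 0 in the lowest CX3CR1-DTR library, and C1qa held 21.1 to 57.2 reads in the graft. Itgam ran from 8.17 to 228 in the CX3CR1-DTR libraries. Csf1r, the receptor of the main macrophage growth factor, ranged from 759 to 6692 reads on this scale in the tested colon libraries, from 1357 to 29790 in the ileum and from 983 to 2819 in the CX3CR1-DTR libraries. In such bulk samples, fewer macrophages and less of a transcript per macrophage cannot be told apart. The 2 ileum day 4 libraries of experiment 1 held 213708 and 224782 epithelial reads against 59602 and 66719 in those of experiment 2. The colon day 8 library of experiment 1 (889451 reads on genes) stood apart from the other 3 with a pan-leukocyte sum of 50604 and an epithelial sum of 114160. It was left out of the main tests for another reason: its title has no number, and the study lists 3 libraries for that group.

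Summed over the 44 members, the graft libraries held 20859, 24971 and 20565 normalized reads (22132 ± 2464, SD, n = 3). The sums in the colon were 6017, 6845 and 7237 on day 4, 6950, 7020 and 5214 on day 8, and 7787, 8523, 5623 and 7633 on day 12. The ileum libraries held 19024, 7218, 8599 and 15363 on day 4, 17461, 18598, 12499 and 9890 on day 8, and 28214, 16387, 12979 and 15048 on day 12. The colon day 8 library that was left out of the tests held 12997, within the range of the ileum. Its members went both ways: Isg15 (1100) and Bst2 (1322) lay above every tested colon library, and Iigp1 (6.71) lay under every one. All colon libraries thus lay below every graft library. The ileum libraries lay between the graft and the tested colon libraries except for replicate 2 of day 4, which lay within the range of the colon, and replicate 1 of day 12, which exceeded the graft. Against the graft of its own experiment the summed level differed by -2.26 to -1.29 on the log2 scale in the 10 colon libraries and by -1.51 to 0.436 in the 12 ileum libraries. On the scale of reads on genes, the mean of the ileum day 12 libraries stood level with the graft (a log2 difference of 0.014 in place of -0.286).

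**Figure D1:**
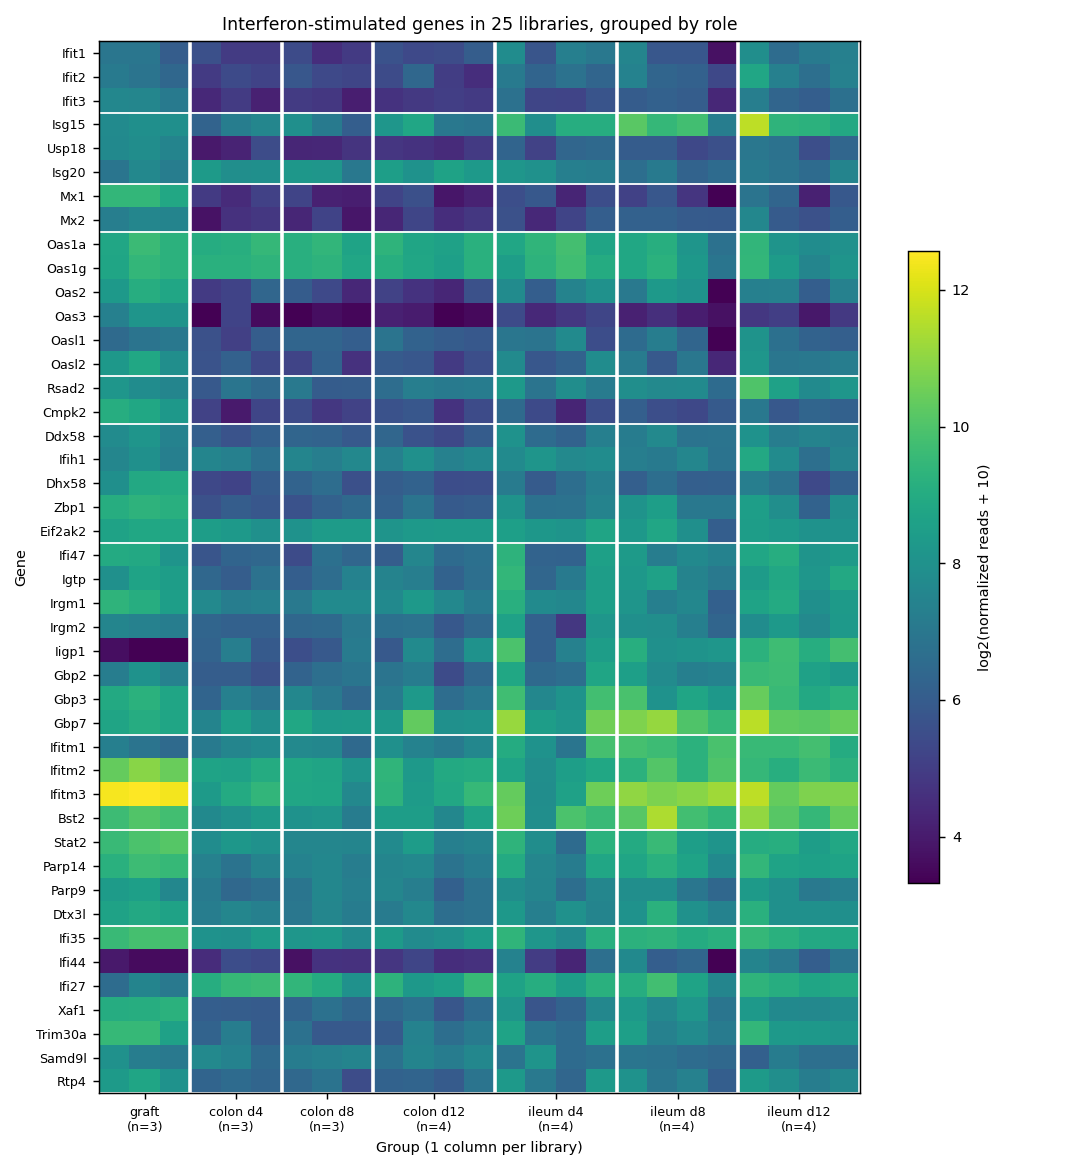
Heat map of the 44 interferon-stimulated genes (rows, grouped by role) in the 25 tested libraries (columns, by group) as log2(normalized reads + 10). Brighter colours are higher levels. The graft columns are the brightest for Mx1, Cmpk2, Oas3, Ifitm3 and Zbp1, the ileum columns for Iigp1, Gbp7, Isg15 and Ifitm1, and most rows are darker in the colon than in the ileum.

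The direction of this difference depends on the denominator. Per 1000 counts of the pan-leukocyte list, the members summed to 171 ± 13 in the graft (SD, n = 3), to 1743, 1508 and 1742 in the colon on days 4, 8 and 12, to 845, 853 and 862 in the ileum, and to 2397 in the CX3CR1-DTR colon (means). On that scale every gut library exceeded the graft and the colon means exceeded the ileum means, although libraries of the segments overlapped, where per mapped read the order of the means was graft, ileum, colon. The change of sign held for most members singly. Per pan-leukocyte count, 41 to 43 of the 44 were higher than in the graft in each CD11c-DTR gut group, the exceptions being Mx1, Oas3 or Cmpk2. The pan-leukocyte sum itself went from at least 176860 in the graft to at most 15392 in the tested colon libraries and 73866 in the ileum. A gene had to fall further than this sum to be lower on this scale. The share of all genes was not counted there, so these counts do not set the members apart. Such a ratio also rises where RNA of cells outside the leukocytes carries member transcripts, and the part of that RNA in any result below was not tested. All levels and sums below are per read, as a share of the RNA in the library. The fitted log2 differences, their medians and the calls come from counts scaled by TMM, unless library totals are named. They can therefore differ from the ratio of the levels shown, and none of them is per leukocyte.

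**Figure D2:**
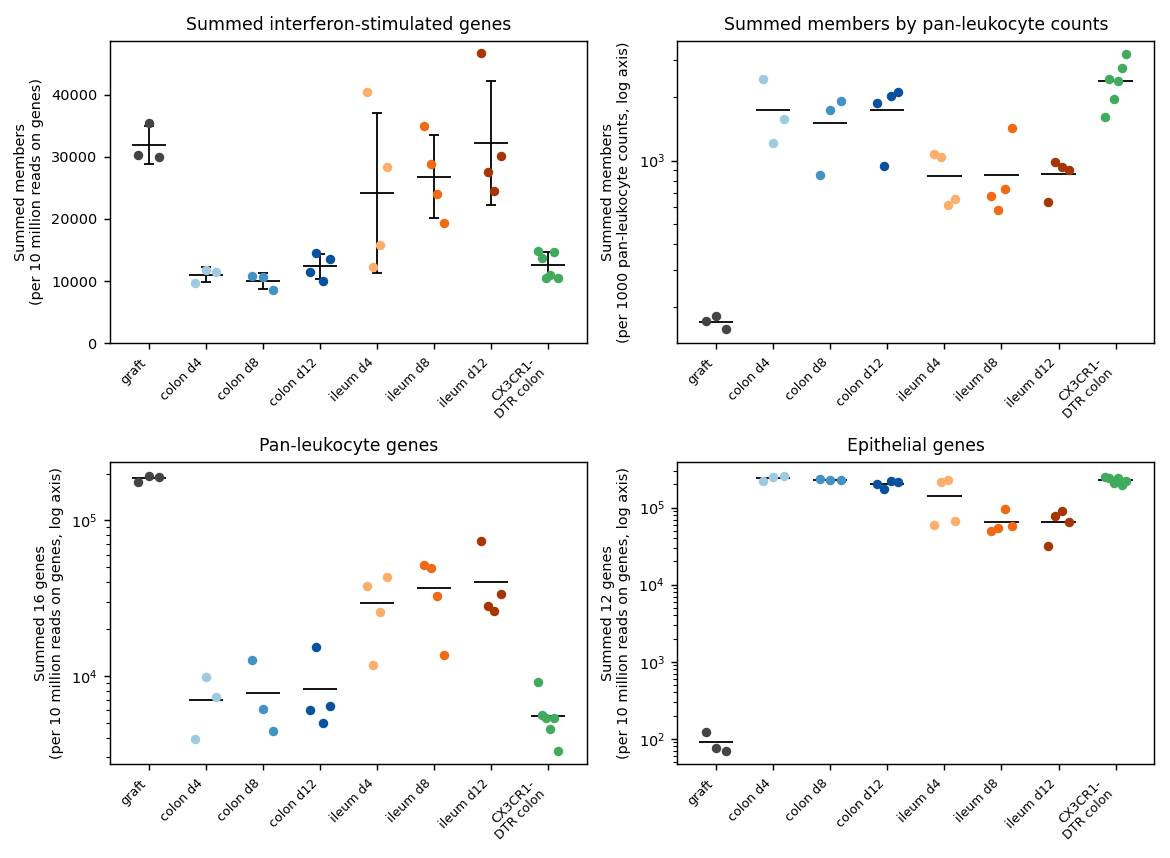
Values of each library (points) and group means (lines) in 4 panels: members summed per 10000000 reads on genes (linear axis from 0, with bars of 1 SD), and on log axes members per 1000 pan-leukocyte counts, and the sums of 16 pan-leukocyte and 12 epithelial genes per 10000000 reads on genes. The colon groups of both models lie lowest in the first panel and have the highest means in the second, with pan-leukocyte sums of 3304 to 15392 against 176860 to 193646 in the graft.

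Which interferon-stimulated genes changed when monocytes became colonic macrophages was asked by comparing each colon day with the graft. On day 4, 28 members fell and 4 rose (24.5% and 35.9% of the 11842 genes tested fell and rose). The median log2 difference was -1.52 over the members and 0.21 over all genes tested. Days 8 and 12 gave 27 falls each (background 23.9% and 24.9%) with 3 and 5 rises (background 35.2% and 37.7%). The genes with the deepest falls, Mx1, Oas3 and Cmpk2, belong to families of antiviral effectors. Mx1 encodes a GTPase, and whether its transcript gives a working protein in the donor strain was not tested. Oas3 makes the oligoadenylates that activate RNase L. Cmpk2 is a mitochondrial nucleotide kinase next to Rsad2 on chromosome 12. Against these falls Ifi27, a mitochondrial protein induced by interferon-alpha, and Isg20, an exonuclease for single-stranded RNA, rose, as did Iigp1 on all days and Ifi44 on days 4 and 12. On day 4 the groups did not overlap for 35 members lower and 4 higher in the colon (38.6% and 34.2% of all tested genes), on day 8 for 32 and 2 (37% and 35.7%), and on day 12 for 31 and 4 (35.3% and 32.2%). Scaled to library totals, the median of all genes on day 4 moved from 0.21 to -0.12 and that of the members from -1.52 to -1.85, and the day 4 calls became 30 falls and 4 rises.

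Mx1 (chr16:97668644-97684512, mm9) held 679, 686 and 458 normalized reads in the graft libraries, 19.7, 11.9 and 24.4 in the colon on day 4, 27, 7.83 and 7.02 on day 8 and 27.2, 37.4, 4.87 and 8.25 on day 12. No colon library came near the graft. Mx1 fell by 4.65 ± 0.73 (adjusted p = 8.7e-06) on the log2 scale by day 4 and fell by 4.78 ± 0.65 (adjusted p = 1.16e-06) by day 12 (edgeR's quasi-likelihood test, Benjamini-Hochberg adjusted over all genes tested, here and below). Its neighbour Mx2 fell by 3.42 ± 0.68 (adjusted p = 0.000139) by day 4, from 164 ± 18.3 to 12.2 ± 7.69 normalized reads (SD, n = 3 each).

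Among the oligoadenylate synthetases, Oas2, Oas3 and Oasl2 fell on all 3 days in the colon, while Oas1a, Oas1g and Oasl1 did not pass the test on any. Oas2 held 309, 529 and 438 normalized reads in the graft and 25.3, 15.6, 9.75 and 39.6 in the colon on day 12, with no overlap, and fell by 3.87 ± 0.74 (adjusted p = 9.35e-05). Oas3 went from 154, 271 and 259 in the graft to 0, 26.7 and 2.03 on day 4, close to the level of single reads. On day 8 its 3 colon libraries held 2 counts in all, so that the graft exceeded the colon 180-fold with a 95% counting interval of 49.5 to 1495. Oas1a, in the same cluster on chromosome 5 as Oas2 and Oas3, held 438, 779 and 608 in the graft and 633, 427, 385 and 572 in the colon on day 12, and the groups overlapped (0.07 ± 0.40, adjusted p = 0.897). A level of Oas1a near that of the graft thus stood in the same day 12 colon libraries in which Oas2 and Oas3 lay under the graft.

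The IFIT proteins, which bind foreign RNA, were low in the colon. Ifit3 (chr19:34658019-34663472, mm9) held 185, 178 and 131 normalized reads in the graft, 10.8, 20.8 and 8.13 on day 4 and 15.6, 18.7, 23.15 and 19.8 on day 12. Its groups did not overlap, and it fell by 3.33 ± 0.58 (adjusted p = 3.07e-05) and fell by 2.68 ± 0.48 (adjusted p = 4.57e-05). Ifit2 fell by 1.66 ± 0.60 (adjusted p = 0.0211) by day 4, a call lost without colon day 4 replicate 1 or 3 (adjusted p up to 0.0867). Ifit1 differed by -1.48 ± 0.69 (adjusted p = 0.0655) on day 4, when its libraries did not overlap with the graft, and by -0.83 ± 0.60 (adjusted p = 0.236) on day 12.

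In the ISG15 system, Isg15 encodes the ubiquitin-like protein and Usp18 the protease that removes it. Isg15 held 202, 231 and 232 normalized reads in the graft, 66.3, 142 and 181 in the colon on day 4 and 278, 433, 119 and 110.5 on day 12. The day 4 values lay under the graft, those of day 12 overlapped with it, and no test was passed (-0.43 ± 0.72, adjusted p = 0.621 and 0.37 ± 0.66, adjusted p = 0.645). Usp18, which also damps signalling at Ifnar2, held 199, 219 and 172 in the graft and 5.38, 8.89 and 34.6 on day 4 and fell by 3.23 ± 0.54 (adjusted p = 1.81e-05). Isg20 (chr7:86058310-86065282, mm9) rose from 109, 188 and 140.5 to 317, 225 and 234 on day 4 and to 352, 252, 389 and 305 on day 12. Its colon libraries of these days all exceeded the graft, by 1.15 ± 0.35 (adjusted p = 0.00659) and by 1.51 ± 0.33 (adjusted p = 0.000394). On day 8 the rise of Isg20 was 0.86 ± 0.35 (adjusted p = 0.0363), and it was lost with the experiment as a replicate block (0.79, adjusted p = 0.0659).

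Among the nucleic acid sensors, Ddx58 (RIG-I), Dhx58 (LGP2) and Zbp1 fell in the colon, and Ifih1 (MDA5) and the kinase Eif2ak2 (PKR) did not pass. Zbp1, a sensor of Z-form nucleic acids that can start necroptosis, held 531, 624 and 562 normalized reads in the graft and 62.3, 109, 51.2 and 56.1 in the colon on day 12. The groups were far apart, and Zbp1 fell by 3.26 ± 0.51 (adjusted p = 7.88e-06) by day 4 and fell by 2.72 ± 0.44 (adjusted p = 1.1e-05) by day 12. Cmpk2 went from 528, 444 and 293 to 25.1, 5.93 and 28.5 and fell by 4.01 ± 0.52 (adjusted p = 7.39e-07). Rsad2 (viperin), transcribed from the same locus in the opposite direction, held 278, 213 and 177 in the graft and 50.2, 109.7 and 81.3 on day 4, without overlap (-1.13 ± 0.53, adjusted p = 0.0714).

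Of the 8 GTPases that act on vacuoles of intracellular microbes, 5 fell by day 4 (Irgm1, Igtp, Ifi47, Gbp3 and Gbp2), Gbp7 and Irgm2 did not pass, and Iigp1 rose. Igtp (Irgm3) held 239, 405 and 346 in the graft and 75.3, 56.3 and 102 in the colon on day 4, without overlap, and fell by 1.75 ± 0.56 (adjusted p = 0.00942). Irgm1 fell by 1.28 ± 0.40 (adjusted p = 0.00868) from 634, 527 and 349 to 194, 142 and 155. Iigp1 had 1 count in the 3 graft libraries together. It held 66.3, 145 and 50.8 normalized reads in the colon on day 4 and 50.6, 206, 88.9 and 249 on day 12, which exceeded the graft 103-fold (95% counting interval 18.1 to 4099) and 180-fold (32 to 7114).

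Among the membrane restriction factors, which block the entry of enveloped viruses (Ifitm proteins) or tether budding virions (Bst2, tetherin), Ifitm3 held the most reads of any member in the graft, both as counted and per kilobase of transcript. It supplied 25.6% ± 1.21 of all member reads there (SD, n = 3), a share that a 3′ method does not scale to length. Ifitm3 (chr7:148195489-148196643, mm9) held 5490.5, 6053 and 5419.9 normalized reads in the graft and 319, 492 and 663, 429, 425 and 187 and 625, 330.1, 456 and 722 in the colon on days 4, 8 and 12. No colon library came near the graft, and Ifitm3 fell by 3.18 ± 0.55 (adjusted p = 2.93e-05) by day 4. Ifitm2 fell by 1.501 ± 0.31 (adjusted p = 0.000264) and Bst2 fell by 1.48 ± 0.52 (adjusted p = 0.0174) by day 4; the latter was lost without colon day 4 replicate 1 (adjusted p up to 0.0762 over the alternatives). Ifitm1, in the same gene cluster, did not fall: it held 149, 109 and 82.3 in the graft and 241, 162, 128 and 185 in the colon on day 12. Its day 12 rise of 0.998 ± 0.43 (adjusted p = 0.0456) was lost in 12 of the 32 alternatives, with adjusted p up to 0.198.

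Stat2, which carries the interferon signal to the promoter, and the ADP-ribosylation proteins Parp14, Parp9 and Dtx3l all fell by day 4. Stat2 (chr10:127707632-127729905, mm9) held 761, 986 and 1097 normalized reads in the graft, 217, 288 and 246 on day 4, 179, 177 and 177 on day 8 and 202, 336, 147 and 167 on day 12. The highest colon library lay far under the lowest graft library, and Stat2 fell by 1.58 ± 0.43 (adjusted p = 0.00295) by day 4 and fell by 1.83 ± 0.39 (adjusted p = 0.00032) by day 12. Of the further 7 genes, Rtp4, Trim30a, Xaf1 and Ifi35 fell on all 3 days. Trim30a, a regulator of inflammatory signalling, fell by 2.45 ± 0.57 (adjusted p = 0.000731) from 727, 721 and 385 to 66.3, 142 and 54.9. Samd9l held 247, 141 and 124 in the graft and 99.3, 171, 139 and 185 in the colon on day 12, with overlap, and did not pass (0.19 ± 0.36, adjusted p = 0.663 on day 12).

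Ifi27 (chr12:104672399-104678455, mm9) went the other way. It held 87, 169 and 124 normalized reads in the graft, 531, 720.4 and 779 in the colon on day 4, 669, 506 and 246 on day 8 and 621, 293, 362 and 736 on day 12. The lowest colon library lay above the highest graft library, and the rise was 2.75 ± 0.42 (adjusted p = 6.09e-06), 2.12 ± 0.41 (adjusted p = 0.000125) and 2.33 ± 0.40 (adjusted p = 2.46e-05). Ifi27 thereby supplied 10% of all member reads in the colon on day 4. The epithelial sums were higher than in the graft in the same libraries (above), and their part in the rise of Ifi27, Isg20 and Iigp1 was not tested.

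In the ileum fewer members fell and more rose than in the colon. On day 4, 11 members fell (background 20.5%) and 7 rose (36.2%), on day 8, 8 fell (19.5%) and 6 rose (34.3%), and on day 12, 5 fell (20%) and 10 rose (35.9%). The median log2 difference of the members was -0.13, -0.27 and -0.03 on these days, against 0.23, 0.20 and 0.22 over all genes. Groups did not overlap for 17, 18 and 13 members lower (34.1%, 36.1% and 37.6% of all tested genes) and 3, 4 and 8 members higher than the graft (24.2%, 24.5% and 28.4%). The falls and the members lower without overlap lie near or under these shares, so they do not set the members apart. The rises and the members higher without overlap lie under the shares. With library totals in place of TMM the calls became 16 falls and 4 rises on day 4, 16 and 6 on day 8, and 11 and 8 on day 12. Mx1, Oas3, Cmpk2 and Dhx58 fell on all 3 days in the ileum, as they did in the colon. Gbp7, Isg15, Ifi27, Ifitm1, Ifi44 and Iigp1 rose on all 3 days.

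**Figure D3:**
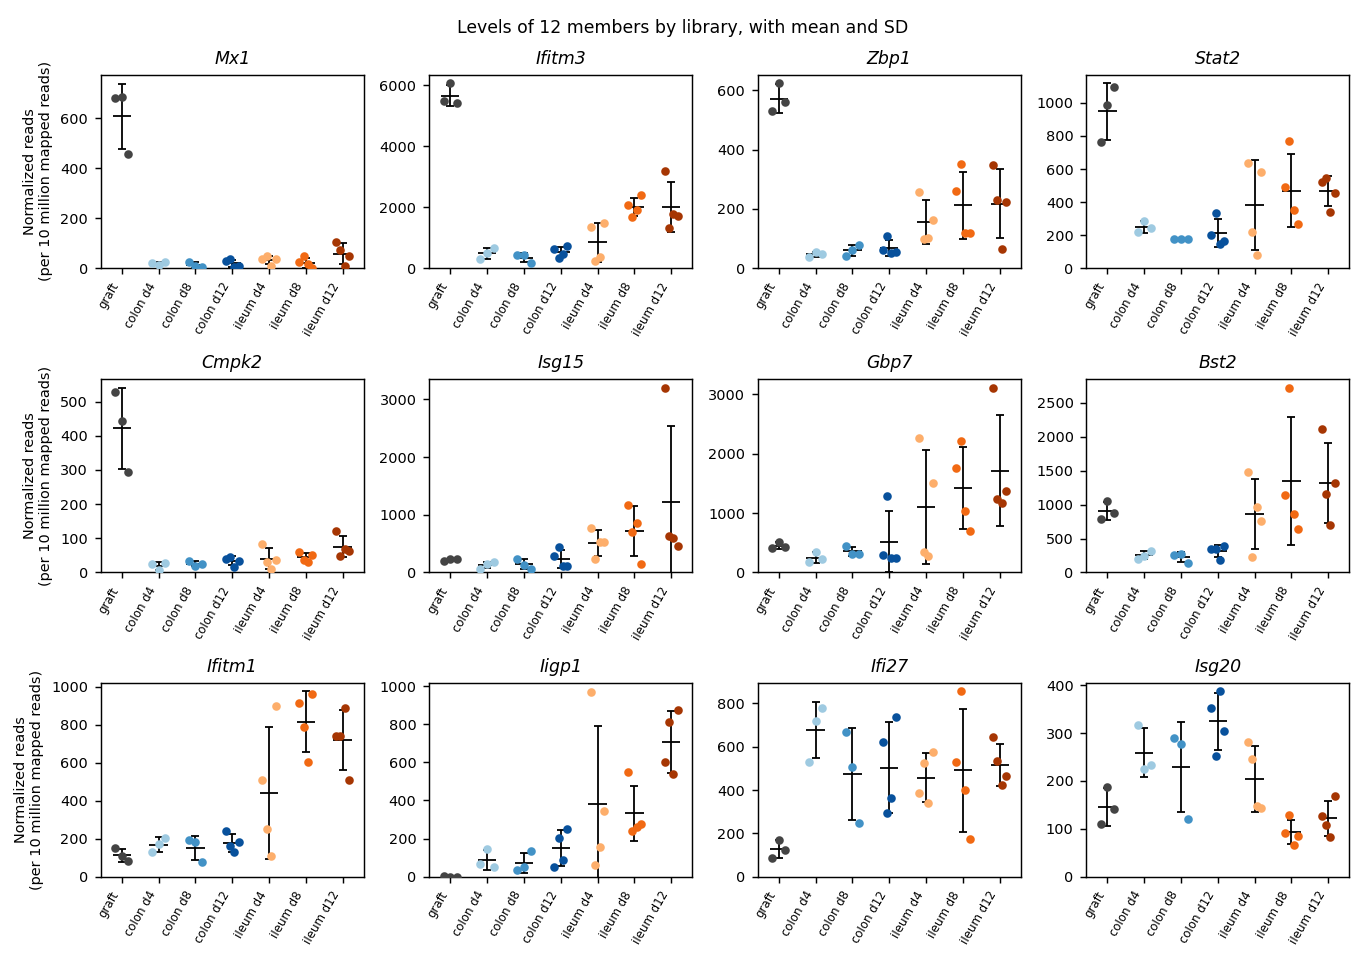
Normalized reads of 12 members (panels; linear axes from 0) in the graft and on days 4, 8 and 12 in colon and ileum, with each library as a point and the group mean ± SD (bars cut at 0). Mx1, Ifitm3, Zbp1 and Cmpk2 lie lower in every gut library than in the graft, Isg15, Gbp7 and Ifitm1 are higher in the ileum, and Isg20 is higher in the colon.

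Among the members that fell in both segments, Mx1 held 36.3, 49.1, 9.22 and 35.7 normalized reads in the ileum on day 4, 24.4, 47.2, 16.7 and 0 on day 8 and 106, 71.4, 7.8 and 48.8 on day 12. All 12 ileum libraries were under the graft, and Mx1 fell by 3.65 ± 0.64 (adjusted p = 4.24e-05) by day 4 and fell by 2.87 ± 0.59 (adjusted p = 0.00022) by day 12. Cmpk2 held 120.0, 48.9, 70.2 and 63.6 on day 12 and fell by 1.96 ± 0.42 (adjusted p = 0.000371). Oas3 fell by 3.30 ± 0.67 (adjusted p = 0.000214) to 18.1, 22.6, 5.2 and 19.2, and Oas2 held 152, 158, 57.2 and 158 without passing (-1.20 ± 0.66, adjusted p = 0.128). Ifit3 fell by 1.24 ± 0.48 (adjusted p = 0.0313) by day 4, lost in 8 of the 32 alternatives (adjusted p up to 0.278), and stood at -0.31 ± 0.45 (adjusted p = 0.579) on day 12.

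Ifitm3 and Zbp1 fell in the ileum by day 4, and neither passed between ileum days. Ifitm3 held 1340.5, 224, 378 and 1469 normalized reads on day 4, 2082, 1682, 1907 and 2393 on day 8 and 3199, 1319, 1765 and 1726 on day 12. All of these lay under the graft, but only day 4 passed, with -2.32 ± 0.48 (adjusted p = 0.000262) against -0.89 ± 0.47 (adjusted p = 0.114) and -0.999 ± 0.47 (adjusted p = 0.0733) later. The day 4 values of 224 and 378 are those of experiment 1, whose libraries held the high epithelial sums given above. Those of experiment 2, 1340.5 and 1469, lay within the range of day 12, so a change of Ifitm3 with time is not shown. Zbp1 fell by 1.42 ± 0.43 (adjusted p = 0.00721) by day 4, which was lost with only the 2 ileum day 4 libraries of experiment 2 (adjusted p = 0.104). Stat2 held 521, 549, 343 and 457 on day 12, all under the graft, and did not pass (-0.54 ± 0.39, adjusted p = 0.241). Usp18 fell by 1.61 ± 0.45 (adjusted p = 0.00449) by day 8 and stood at -0.76 ± 0.43 (adjusted p = 0.136) on day 12.

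Isg15 (chr4:155573533-155574927, mm9) held 776, 226, 535 and 528 normalized reads in the ileum on day 4, 1171, 701, 857 and 143 on day 8 and 3192, 639, 606 and 466 on day 12, against 202, 231 and 232 in the graft. The day 12 libraries all exceeded the graft, and the rise was 2.97 ± 0.71 (adjusted p = 0.00109). It rested in part on replicate 1, without which it was 1.79 (adjusted p = 0.0101). The rise on day 4 (1.66 ± 0.69, adjusted p = 0.0431) was lost in 10 of the 32 alternatives, among them the replicate block (1.32, adjusted p = 0.0803).

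Gbp7, a guanylate-binding protein, held 413, 513 and 426 normalized reads in the graft, 1765, 2211, 1031 and 697 in the ileum on day 8 and 3106, 1229, 1165 and 1366 on day 12. Every library of these days exceeded the graft, and Gbp7 rose by 2.16 ± 0.65 (adjusted p = 0.00739) and 2.43 ± 0.66 (adjusted p = 0.00308). Gbp2 rose by 2.06 ± 0.51 (adjusted p = 0.00153) on day 12, from 140.3, 254 and 155 to 765, 793, 377 and 299. Irgm2 rose by 1.18 ± 0.49 (adjusted p = 0.0447), while Irgm1 (0.00 ± 0.37, adjusted p = 0.996) and Igtp (0.69 ± 0.49, adjusted p = 0.242) did not pass, and the printed promoter windows of Igtp and Irgm2 carry the same element and nearly the same flanks.

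Iigp1 (Irga6) had the largest fitted rise of the members in all 6 comparisons with the graft. The ileum libraries held 967, 61.9, 157 and 342 normalized reads on day 4, 548, 239, 261 and 279 on day 8 and 602, 812, 538 and 875 on day 12. All exceeded the graft with its single count, 488-fold on day 4 (95% counting interval 87 to 19310) and 931-fold on day 12 (167 to 36800). Ifi44, at 5.61, 1.94 and 2.42 in the graft and 172, 124, 57.2 and 106 in the ileum on day 12, rose by 5.53 ± 1.07 (adjusted p = 0.000118).

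Ifitm1 rose from 149, 109 and 82.3 in the graft to 508, 249.8, 111 and 899 on day 4, 914, 789, 606 and 962 on day 8 and 740.3, 744, 887 and 507 on day 12. Day 8 and day 12 were clear of the graft, with rises of 3.45 ± 0.46 (adjusted p = 1.36e-06) and 3.13 ± 0.45 (adjusted p = 3.71e-06). Ifitm2, next to it, fell by 1.69 ± 0.29 (adjusted p = 3.72e-05) by day 4. Bst2 held 789, 1054 and 872 in the graft and 2115, 1150.1, 707 and 1325 in the ileum on day 12, and did not pass (1.05 ± 0.48, adjusted p = 0.0673).

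Ifit2 and Rsad2 rose by day 12 by 1.52 ± 0.52 (adjusted p = 0.0157) and 1.60 ± 0.49 (adjusted p = 0.00765). Their ileum libraries held 430.2, 154, 93.6 and 157 and 1023, 379.6, 203 and 282 normalized reads. Without ileum day 12 replicate 1 neither passed (0.84, adjusted p = 0.136, and 0.82, adjusted p = 0.0911), and Ifit2 was also lost without graft replicate 3 or with library totals. Ileum day 12 replicate 1 had the highest summed level of the members (28214 normalized reads) of all tested libraries. Ifi27 rose by 2.50 ± 0.40 (adjusted p = 1.52e-05) to 643, 534, 424 and 463, a level that overlapped with that of the colon.

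Within a segment few members passed between days, where few genes of any kind did. In the colon, no member passed between days 4 and 8, 8 and 12 or 4 and 12, where 0% of all tested genes passed in either direction, and none had an unadjusted p under 0.05 in edgeR; DESeq2 called 0 as well. The median log2 difference over the members was -0.11, 0.25 and 0.30 from day 4 to 8, 8 to 12 and 4 to 12 in the colon, against 0.00, 0.03 and 0.03 over all genes. In the ileum it was -0.06, 0.48 and 0.52 against 0.01, 0.03 and 0.02, with 36 of the 44 members above 0 from day 8 to day 12 and from day 4 to day 12. In the ileum, Ifitm2 rose from day 4 to day 8 by 1.38 ± 0.28 (adjusted p = 0.00997), where 0.718% of all genes rose and 4.42% fell. Its libraries held 399.5, 226, 350.2 and 449 normalized reads on day 4 and 596, 1075, 606 and 1040.0 on day 8. The call was lost with the experiment as a replicate block (1.17, adjusted p = 0.201) and with only the 2 libraries of experiment 2 on day 4. From day 8 to day 12 no member passed (0% of all genes in either direction; 6 members at an unadjusted p under 0.05). From day 4 to day 12 no member passed either (0.279% of all genes rose and 2.02% fell; 9 members at an unadjusted p under 0.05, 1 passed by DESeq2, and 9 passed without ileum day 4 replicate 1). The difference between segments in their change from day 4 to day 12 passed for no member, as for 0% of all genes higher or lower (1 member at an unadjusted p under 0.05; none by DESeq2).

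Colon and ileum macrophages of the same day were compared to ask which genes separate the segments. On day 12, 34 members were lower in the colon and only Isg20 was higher (17.2% and 15.3% of all tested genes). On day 8 these were 28 and again Isg20 (18.3% and 16.7%), and on day 4 they were 7 and 0 (2.66% and 0.524%). The median log2 difference, colon minus ileum, was -1.47, -1.504 and -1.91 over the members on days 4, 8 and 12, against -0.04, -0.05 and -0.01 over all genes. By role, all IFIT and Mx proteins, all 8 GTPases and Stat2 with Parp14, Parp9 and Dtx3l were lower in the colon on day 12. Groups did not overlap for 9 members lower in the colon on day 4, 19 on day 8 and 28 on day 12 (5.18%, 11% and 12.08% of all tested genes), and for 0, 1 and 1 higher (8.98%, 28.3% and 18.5%).

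The members were also lower in the colon within each experiment that held both segments. The summed level differed by -1.38 on day 4 (experiment 2), by -1.11 and -1.22 on day 8 (experiments 2 and 3), and by -1.07, -1.54 and -0.979 on day 12 (experiments 1, 2 and 3), with 35 to 41 of the 44 members lower. The pan-leukocyte sum moved with it: in experiment 2 on day 4 it was 5619 in the colon and 40483 in the ileum. The epithelial sum was 240907 and 63160. Other lists were also higher in ileum libraries: the sums of 7 T cell genes ran from 94.5 to 393 in the tested colon libraries and from 180.5 to 2061 in the ileum, those of 6 B cell genes from 30.4 to 83.8 and from 54.1 to 2067, and those of 6 endothelial genes from 365 to 1465 and from 263 to 7869.9 reads per 10000000 reads on genes. Siglech, a marker of the plasmacytoid dendritic cells that make much type I interferon, reached 41.3 in the colon and 458 in the ileum, and was at 0 in single libraries of both. The sum of the list of 8 plasmacytoid dendritic cell genes that holds Siglech went the other way, through Klk1. The list summed to 5824 to 21223 in the tested colon libraries and to 2794 to 13027 in the ileum. Klk1 held 5105 to 20287 and 578 to 12482, most of the sum in the colon. The other genes of the list reached higher levels in the ileum. Among them, Ccr9 reached 61.6 in the colon and 1263 in the ileum, Tcf4 964 and 2455, and Runx2 42.7 and 219. The part of these cell types in the difference between segments was not tested. Per pan-leukocyte count, 33, 35 and 37 of the 44 members were higher in the colon on days 4, 8 and 12. The share of all genes on that scale was not counted, and the pan-leukocyte sum was lower in the colon within each experiment.

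**Figure D4:**
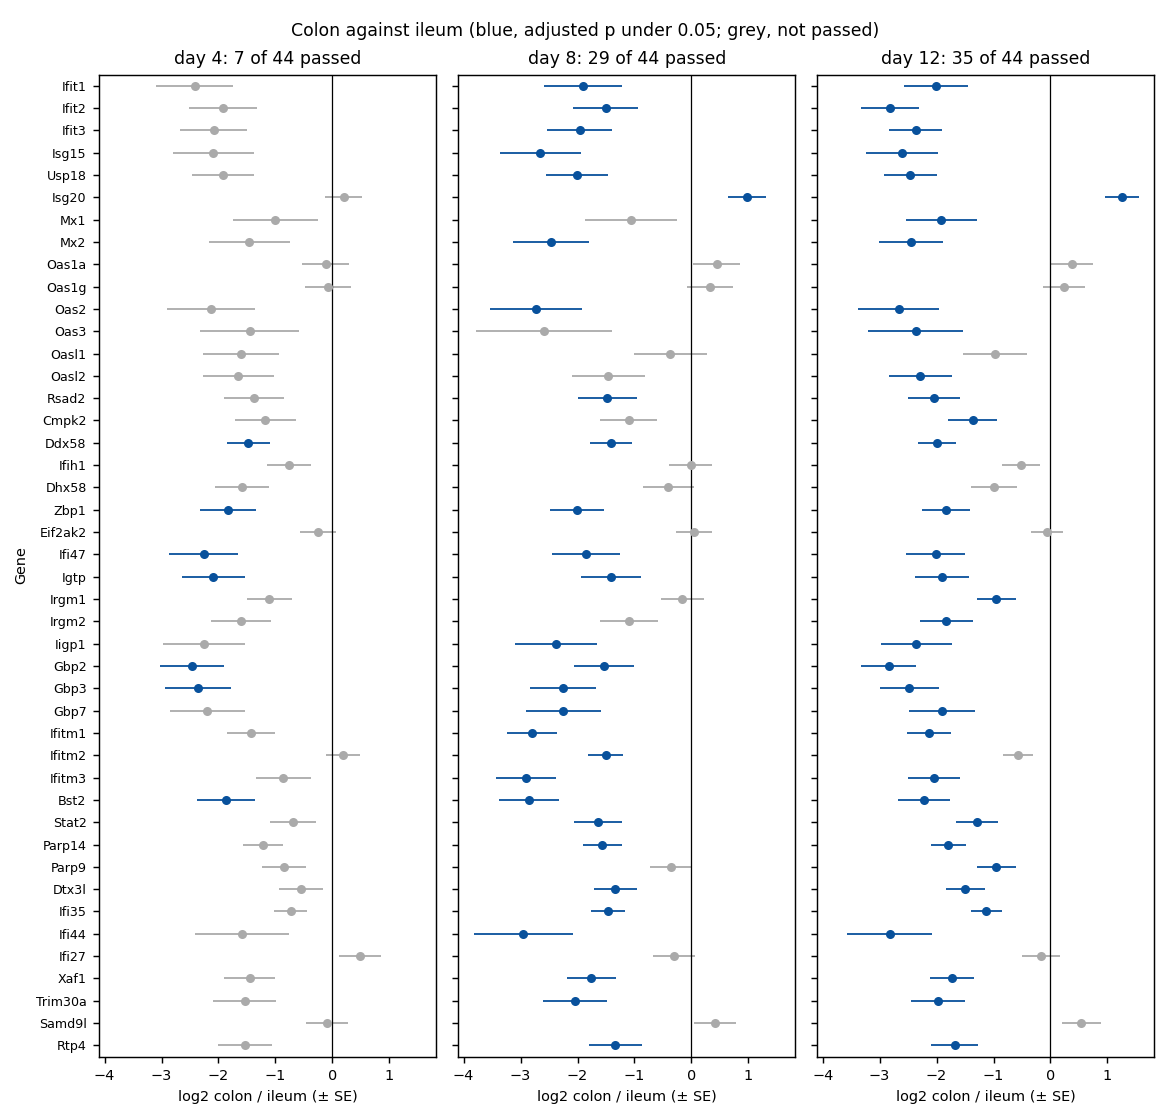
Log2 ratio of colon to ileum (± SE) for each of the 44 members (rows) on days 4, 8 and 12 (panels), blue where the adjusted p was under 0.05 and grey elsewhere. Nearly all points lie left of 0, on day 12 with a median of -1.91, and Isg20 lies to the right.

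Gbp2, which lyses pathogen vacuoles, had the largest fitted difference on day 12. It held 107, 137, 32.9 and 75.9 normalized reads in the colon and 765, 793, 377 and 299 in the ileum, with no overlap (-2.84 ± 0.48, adjusted p = 0.000439). Ifi44 followed at -2.82 ± 0.75 (adjusted p = 0.0062), with 17.5, 28, 13.4 and 14.8 against 172, 124, 57.2 and 106. Ifit2 stood at -2.81 ± 0.51 (adjusted p = 0.000564), with 33.1, 74.7, 21.9 and 13.2 in the colon against the ileum values above. These 3 values lie within 1 SE of each other. For Ifit2 this is also the difference between the change from the graft in each segment, because the graft cancels. It was lower than the graft in the colon and higher in the ileum.

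On day 8, among members whose groups did not overlap, the largest differences lay in the membrane restriction factors. Ifitm3 held 429, 425 and 187 in the colon and 2082, 1682, 1907 and 2393 in the ileum (-2.90 ± 0.53, adjusted p = 0.00046), and Ifitm1 held 192, 185 and 78.4 and 914, 789, 606 and 962 (-2.80 ± 0.44, adjusted p = 0.000199). Neither pair of groups overlapped, and these calls remained in every alternative run for them. Bst2 held 253, 274 and 137 and 1144, 2727, 857 and 646 (-2.85 ± 0.53, adjusted p = 0.000519), and lost the call when the fourth colon day 8 library was added (adjusted p up to 0.0894). With all 4 colon day 8 libraries 13 members passed in place of 29.

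On day 4 Gbp2, Gbp3, Ifi47, Igtp, Bst2, Zbp1 and Ddx58 passed. Gbp3 held 68.1, 151 and 112 in the colon and 849, 186, 258 and 863 in the ileum (-2.36 ± 0.59, adjusted p = 0.0389), and Zbp1 39.4, 56.3 and 46.8 and 258, 100.3, 101 and 164 (-1.83 ± 0.49, adjusted p = 0.0451). Both were without overlap, but the lower pair of ileum values is that of experiment 1. This count moved more than any other: 0 members passed without any 1 of the 3 colon libraries, without ileum replicate 1 or 4, or with all 4 colon day 8 libraries, 26 passed without ileum replicate 2, 30 with only the ileum libraries of experiment 2, and 20 with the experiment as a replicate block. The calls for Gbp2 and Gbp3 were lost in 7 of the 32 alternatives each, and those for Zbp1, Ifi47, Igtp and Bst2 in 14 to 23.

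Isg20 was the only member that passed as higher in the colon than in the ileum, on days 8 and 12. On day 12 it held 352, 252, 389 and 305 normalized reads in the colon and 127, 109, 83.2 and 169 in the ileum, without overlap, and was higher in the colon by 1.26 ± 0.30 (adjusted p = 0.00317). On day 8 it was higher by 0.98 ± 0.33 (adjusted p = 0.0262), lost without colon day 8 replicate 2 or 3 or ileum day 8 replicate 1 or 3 (adjusted p up to 0.112). Members whose level stood between the segments without a call on any day were Oas1a, Oas1g, Oasl1, Samd9l, Ifi27, Ifih1, Eif2ak2 and Dhx58. Oas1a, for example, differed by 0.37 ± 0.38 (adjusted p = 0.488) on day 12, with 633, 427, 385 and 572 in the colon and 661, 267, 218 and 244 in the ileum.

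The colonic progeny of the second ablation model was set beside the day 12 colon of the first. For this comparison levels are per 10000000 reads on genes. Of the 43 members tested (Ifi44 was under the filter), 21 were lower and 6 higher in CX3CR1-DTR than in CD11c-DTR colon, where 35.4% and 25.2% of 11718 genes were lower and higher. The median log2 difference was -0.50 over the members and -0.11 over all genes, and groups did not overlap for 17 members lower and 3 higher (30.9% and 19.2% of all tested genes). The model, the day, the sequencing and the count table go with the group and cannot be told apart. Gbp3 and Iigp1 were counted on different transcripts in the 2 tables, so their difference cannot be read as a change. Both are nevertheless among the 21 lower members and the 17 without overlap, and enter the median.

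**Figure D5:**
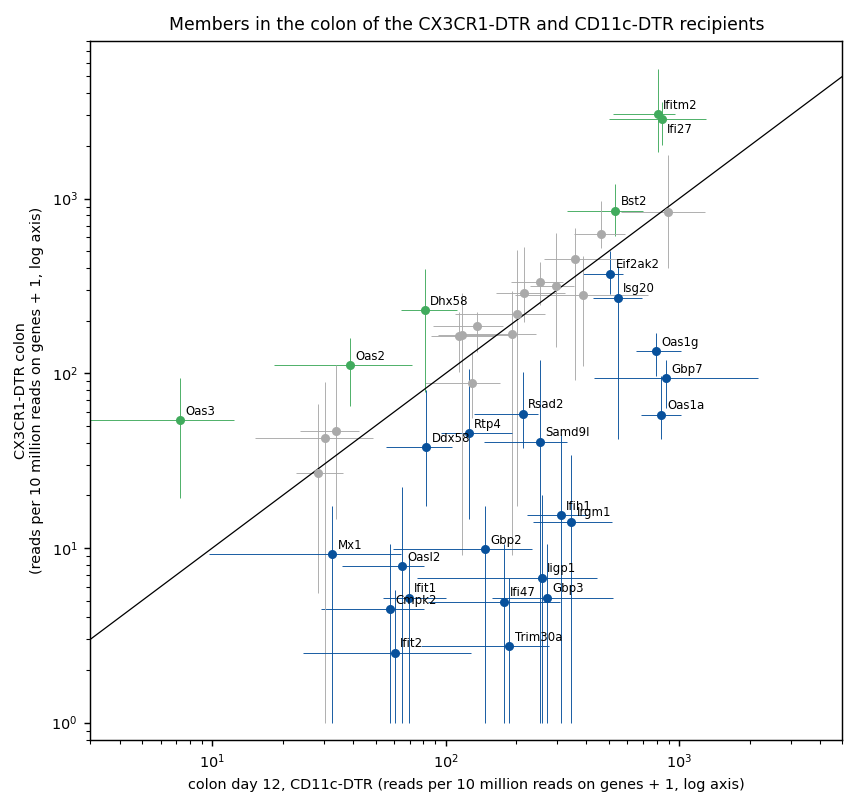
Mean reads per 10000000 reads on genes (+ 1; log axes) of each member in day 12 colon of CD11c-DTR recipients (horizontal) and in CX3CR1-DTR colon (vertical), with bars from the lowest to the highest library and the line of equality; blue and green members passed lower and higher, and grey ones did not pass. Trim30a, Ifi47, Gbp2, Irgm1, Ifit1 and Ifit2 lie far under the line, and Ifitm2 and Ifi27 above it.

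Among the falls, Trim30a held 76.9, 275, 161 and 232 reads in the CD11c-DTR colon and 0, 0 and 5.7 (lowest, median, highest) in the CX3CR1-DTR colon (-5.96 ± 0.58, adjusted p = 8.8e-07). Ifi47 held 82.6, 307, 149.9 and 170.0 and 0, 3.62 and 9.48 (-5.16 ± 0.53, adjusted p = 1.46e-06). Gbp7, which was counted on the same transcript in both tables, held 430.3, 2183, 432 and 445 and 62.7, 96.7 and 119 (-3.25 ± 0.45, adjusted p = 2.25e-05). None of these groups overlapped. Irgm1 differed by -4.60 ± 0.54 (adjusted p = 4.67e-06), Ifit1 by -4.19 ± 0.55 (adjusted p = 1.41e-05) and Ifih1 by -4.22 ± 0.49 (adjusted p = 4.34e-06). Ifit2 had 3 counts in all in the CX3CR1-DTR libraries, against which the CD11c-DTR colon was 24.8-fold higher (95% counting interval 8.13 to 123).

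Ifitm2 and Ifi27 were the leading members on the other side. Ifitm2 held 960.3, 518, 849 and 897 reads in the CD11c-DTR colon and 1848, 2446 and 5524 in the CX3CR1-DTR colon (1.88 ± 0.32, adjusted p = 0.000161), and Ifi27 held 909, 497, 645 and 1307 and 2018, 2855 and 3559 (1.75 ± 0.28, adjusted p = 8.37e-05). Neither pair overlapped. Ifitm2 made up 23.5% and Ifi27 23.6% of all member reads in the CX3CR1-DTR colon. Oas2, Oas3 and Dhx58 were higher by 1.496 ± 0.38 (adjusted p = 0.00347), 3.24 ± 0.62 (adjusted p = 0.000415) and 1.47 ± 0.40 (adjusted p = 0.00503). Ifitm3 (-0.12 ± 0.36, adjusted p = 0.784), Stat2 (0.34 ± 0.38, adjusted p = 0.467), Zbp1 (0.54 ± 0.47, adjusted p = 0.334) and Isg15 (-0.46 ± 0.39, adjusted p = 0.328) did not pass. The rise of Bst2 (0.66 ± 0.26, adjusted p = 0.0419) was lost in 8 of the 17 alternatives, and Isg20, Mx1, Bst2 and Oas2 were lost when tested against a 2-fold change.

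Replicate 1 of the CX3CR1-DTR colon stood apart for several members. It held 40.9 reads of Isg20, 8.17 of Igtp, 89.9 of Stat2 and 8.17 of Zbp1, each the lowest of the 6 libraries, and 5524 of Ifitm2, the highest. Without it 31 members passed in place of 27. Isg20 then differed by -0.77 (adjusted p = 0.00505) in place of -1.02 ± 0.37. Against the graft, 32 members were lower in the CX3CR1-DTR colon and 2 higher, Ifi27 and Ifitm1 (36% and 39.5% of all genes), and 32 and 1 did not overlap (39.5% and 29.99% of all tested genes). Gbp3, counted on different transcripts, is among those lower without overlap. Mx1 fell by 6.51 ± 0.51 (adjusted p = 4.3e-08), Cmpk2 fell by 6.84 ± 0.52 (adjusted p = 3.03e-08) and Trim30a fell by 7.90 ± 0.57 (adjusted p = 1.61e-08), and Ifi27 rose by 4.25 ± 0.37 (adjusted p = 1.04e-07). The pan-leukocyte gene Ptprc (CD45) stood at 13.7 to 34.1 reads in the CX3CR1-DTR libraries and at 255 to 1639 in the day 12 colon, and its part in these differences was not tested.

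The genes upstream of the members were read in the same libraries. Ifnb1, Ifna1, Ifna2, Ifna4, Ifna5, Ifne and Ifnk, which encode type I interferons, had 0 counts in every library, where the limit of 3 counts corresponds to 3.51 to 27.6 normalized reads. Ifng had at most 4.95 normalized reads in graft and colon and up to 42.9 in the ileum. The type I receptor chain Ifnar2 was counted on a single transcript of 1160 bases, so its counts need not follow other transcripts of the gene. Ifnar2 held 1451, 1463 and 1034 normalized reads in the graft, 206, 209, 95 and 157 in the colon and 854, 504, 302 and 557 in the ileum on day 12. It fell by 2.66 ± 0.36 (adjusted p = 1.01e-06) in the colon, without overlap, and its ileum difference was -0.74 ± 0.34 (adjusted p = 0.0728). Ifnar1 fell by 1.37 ± 0.37 (adjusted p = 0.00235) in the colon and stood at 0.12 ± 0.36 (adjusted p = 0.807) in the ileum. The chains of the interferon-gamma receptor fell in both segments by day 12. Ifngr1 differed by -1.39 ± 0.32 (adjusted p = 0.00067) in the colon and -1.17 ± 0.32 (adjusted p = 0.00369) in the ileum, and Ifngr2 by -0.75 ± 0.32 (adjusted p = 0.0437) and -0.76 ± 0.32 (adjusted p = 0.0447).

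Irf9, a partner of Stat2, fell in both segments. It held 1126, 1692 and 1727 in the graft, 222, 168, 91.4 and 134 in the colon and 360.0, 308, 208 and 238 in the ileum on day 12, all gut libraries under the graft, and fell by 3.00 ± 0.46 (adjusted p = 5.45e-06) and fell by 1.97 ± 0.44 (adjusted p = 0.000604). Irf7, the factor that amplifies type I interferon production, fell by 2.67 ± 0.35 (adjusted p = 7.68e-07) in the colon and fell by 1.22 ± 0.34 (adjusted p = 0.00412) in the ileum. Irf1, a target and mediator of interferon-gamma, rose by 1.39 ± 0.33 (adjusted p = 0.00111) in the ileum, from 685, 756 and 819 to 1510.1, 1522, 1586 and 1115, and stood at 0.15 ± 0.32 (adjusted p = 0.712) in the colon.

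Other lists of the pathway moved as follows, beside the shares of all tested genes. In the colon 24.5%, 23.9% and 24.9% of all genes fell on days 4, 8 and 12. In the ileum 20.5%, 19.5% and 20% fell. By day 12, 37.7% rose in the colon and 35.9% in the ileum. On that day 17.2% were lower and 15.3% higher in colon than in ileum. Of 10 genes of class I antigen presentation, which both kinds of interferon induce, 8, 8 and 7 fell in the colon on days 4, 8 and 12, 3 and then 0 fell in the ileum on days 4 and 8, and B2m rose there by day 12 (1.46 ± 0.42, adjusted p = 0.00509); 10 were lower in colon than in ileum on day 12. Of 40 further interferon-stimulated genes, 38 were tested: on day 12, 19 fell and 6 rose in the colon, 13 fell and 14 rose in the ileum, and 30 were lower and 0 higher in colon than in ileum. Among those lower in the colon were the chemokine genes Cxcl9 (-3.11 ± 0.78, adjusted p = 0.00437) and Cxcl10 (-2.02 ± 0.75, adjusted p = 0.0411). In CX3CR1-DTR against CD11c-DTR day 12 colon 17 of 37 further genes were lower and 8 higher (35.4% and 25.2% of all tested genes). The 8 higher are no larger a share than that of all genes. Of the class I genes 3 were higher and B2m lower there (-4.39 ± 0.53, adjusted p = 6.45e-06).

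Of 10 adaptors and kinases that carry the signal of nucleic acid sensors towards interferon genes, 9 were tested. By day 12, 4 of them fell in the colon (Tmem173, which encodes STING, Myd88, Mb21d1, which encodes cGAS, and Tbk1) and 2 in the ileum (Myd88 and Mb21d1). Of all tested genes 24.9% and 20% fell, so the ileum count is near that share. The RNA receptor gene Tlr3 rose in both segments, and Tlr7 rose in the ileum, where 37.7% (colon) and 35.9% (ileum) of all genes rose. In day 12 colon 4 were lower than in ileum (Tmem173, Myd88, Tbk1 and Tlr7) and none was higher (17.2% and 15.3% of all genes).

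Among the interferon regulatory factors, Irf5, Irf4, Irf7 and Irf8 fell in the colon by day 12 and Irf5, Irf2, Irf7 and Irf8 in the ileum, while Irf1 rose in the ileum. Irf5, Irf1, Irf4, Irf7 and Irf8 were lower in colon than in ileum on day 12. The shares of all genes for these comparisons are those given above. Of 6 feedback inhibitors, Pias1 and the phosphatase gene Ptpn6 fell and Trim24 and Socs3 rose in both segments by day 12. Socs3, which blocks receptor-bound Jak kinases, rose by 3.13 ± 0.33 (adjusted p = 2.58e-08) in the colon and 4.08 ± 0.34 (adjusted p = 1.4e-09) in the ileum.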

How the data were processed

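Monocytes and their progeny were sorted and sequenced by a derivative of MARS-seq, a 3′ method with poly(A) capture. The authors aligned reads to mm9 with HISAT 0.1.6 and kept those that mapped uniquely. They deposited raw counts on the exons of each gene, made with HOMER on the sense strand for 1 transcript per gene. Whether molecular identifiers were collapsed is not given in the sources used here. Counts of CD11c-DTR and CX3CR1-DTR recipients stand in separate files, in which 52 columns matched no sample and were not used. Groups came from the labels. Normalized reads divide a count by the mapped total in the header of the first file, or by reads on genes where the second enters.

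Genes reaching 50 normalized reads in 3 or more libraries were tested with edgeR 4.0.16 (TMM, quasi-likelihood F test), in 1 fit of 25 libraries and 7 groups (11842 genes) and in a second of 13 libraries (11718 genes). P-values were adjusted by Benjamini-Hochberg over all genes tested, with a threshold of 0.05, and a standard error is the log2 difference over the root of F. A colon day 8 library whose title has no number was left out because the study lists 3 for that group. DESeq2 1.42.0, library totals, no filter, other sets of libraries, the experiment as a replicate block and each library left out were tried. The experiment was read from title dates (1 date was taken as a slip of the year), so the pairing comes from the labels. Deviations from the group means of libraries of 1 experiment in other groups had a median correlation of 0.02 (96 pairs, -0.477 to 0.517), against -0.009 across experiments (171 pairs, -0.45 to 0.395). No pair of libraries of a group agreed within sampling noise (51 pairs, lowest chi-square per degree of freedom 4.72).

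The members, lists and tests were chosen with earlier results of these data known. Named members were, in 6 comparisons, up to 3 of the largest rises and falls that passed without overlap and whose higher group averaged 100 normalized reads or more, the 5 with the highest mean, and a fixed list of 15. Mx2, Samd9l, Irgm2, Ifih1, Dhx58, B2m, Cxcl9, Cxcl10, Socs3, Ptprc and Csf1r were added after their values were seen. Intervals and limits for a count of 0 cover counting error only. The scripts were tested on simulated counts. By comparison, 15% to 24% of the changes of 1 on the log2 scale were called, and 64% to 88% of those of 2. Of the calls, 3.33% to 7.06% were false. A member that did not pass may therefore still have changed. Gene positions are those of the deposited files (mm9), and promoter sequences are from RefSeq (GRCm38.p6). Some pathway genes are not reported here.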

Additional observations from a re-analysis of the deposited data

Results flagged for a closer look

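The levels of the named members were read in the 145 groups of 4 to 6 libraries for a library far from the others of its group, and 8 were found. Chance alone marks about 1 in 20 such groups, so this number is about what chance gives. Ileum day 12 replicate 1 was such a library for 4 members. It held 3192.23 normalized reads of Isg15 (next highest library 638.94), 3106.2 of Gbp7 (1366.27), 683.73 of Trim30a (311.95) and 661.09 of Oas1a (266.85). Without it the day 12 rise from graft to ileum was 1.79 for Isg15 (adjusted p = 0.0101) and 1.93 for Gbp7 (adjusted p = 0.0133, edgeR), and those of Ifit2 and Rsad2 no longer passed. In the same group Oas2 was low in replicate 3 (57.2 against 151.69 in the next).

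Gbp7 held 1286.03 normalized reads in colon day 12 replicate 2 (next highest 293.87), and Iigp1 held 547.61 in ileum day 8 replicate 1 (278.7). Isg20 held 40.86 reads per 10000000 reads on genes in CX3CR1-DTR colon replicate 1, against 281.12 in the next lowest library.

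Ifit2 moved in opposite directions from the graft by day 12, with -1.29 in the colon (adjusted p = 0.0388) and 1.52 in the ileum (adjusted p = 0.0157), and the difference between these changes (-2.81 on the log2 scale, adjusted p = 0.000564, edgeR) is the comparison of colon and ileum on day 12 itself, because the graft cancels. The rise in the ileum was lost without ileum day 12 replicate 1, as given above.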

How the results depend on the processing

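Counts of members that passed stayed within 1.5 times the reported value in all alternatives but the following. With library totals, 22 passed from graft to ileum day 8 (14 reported), 2 from ileum day 4 to day 8 (1 reported) and 2 in colon against ileum on day 4 (7 reported). DESeq2 gave 3, 1 and 20 for ileum day 4 to day 8, ileum day 4 to day 12 (0 reported) and colon against ileum on day 4. Without the filter the last was 2. With the experiment as a replicate block it was 20 and ileum day 4 to day 8 was 0; beside the calls given above as lost and that of Ifit2 in colon against ileum on day 8 (-1.33, adjusted p = 0.0612, edgeR), the block changed no other call of a named member. With only the groups compared in the fit, ileum day 4 to day 8 and colon against ileum on day 4 both gave 0. With only the ileum day 4 libraries of experiment 2 they gave 0 and 30, and with all 4 colon day 8 libraries colon against ileum gave 0 on day 4 and 13 on day 8 (29 reported). The cause was not tested.

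With 1 library left out at a time, the counts ran from 27 to 33, 26 to 31 and 23 to 32 for graft to colon on days 4, 8 and 12, from 13 to 20, 11 to 16 and 12 to 19 for graft to ileum, from 20 to 30 and 29 to 36 for colon against ileum on days 8 and 12, from 24 to 31 between the models and from 30 to 36 for graft to CX3CR1-DTR colon. Those between colon days, from ileum day 8 to day 12 and for segment by time stayed at 0. Colon against ileum on day 4 ran from 0 to 26. It was 0 without any colon day 4 library or ileum day 4 replicate 1 or 4, 26 and 13 without ileum day 4 replicates 2 and 3, 16 without ileum day 12 replicate 1, 11 without ileum day 8 replicate 4, and 2 to 4 without each graft library, colon day 8 replicate 3 or 4, colon day 12 replicate 3 or 4, or ileum day 12 replicate 2 or 4. Ileum day 4 to day 8 ran from 0 (without ileum day 4 replicate 2) to 4 (without ileum day 4 replicate 1 or 4), with 2 without colon day 8 replicate 4 or ileum day 12 replicate 4. Ileum day 4 to day 12 ran from 0 to 9 (without ileum day 4 replicate 1), with 1 without ileum day 4 replicate 4 or ileum day 8 replicate 4.

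The log2 difference of the summed members from the graft changed sign per 1000 pan-leukocyte counts, which by construction follow the leukocyte share of the RNA. It went from -1.724, -1.791 and -1.582 to 3.354, 3.144 and 3.353 in the colon on days 4, 8 and 12, from -0.818, -0.599 and -0.286 to 2.309, 2.324 and 2.337 in the ileum, and from -1.346 to 3.813 in the CX3CR1-DTR colon. Per read on genes it was -1.537 in the colon on day 4 and 0.014 in the ileum on day 12.

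Of the 200 pairs of a named member and a comparison in which it passed, none changed sign in any of the refits (tool, scaling, filter, block or libraries); single members were not refitted per pan-leukocyte count, where most signs against the graft turn, as given above. Over all settings beside left-out libraries 1185 calls stayed and 82 were lost, and with a library left out 4252 stayed and 235 were lost. Depth sets the scale of these limits: at 1.17 to 9.22 normalized reads per count, levels under 50 normalized reads rest on few counts in the shallower libraries.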
